A study of Mus musculus with 32 samples.

Results

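Expression of 10 genes of the chondrocyte programme was followed through the jaws of mouse embryos with and without the TGF-beta type I receptor Alk5. The genes were the transcription factors Sox9, Sox5 and Sox6 and the non-collagen matrix genes Acan, Matn1, Matn3, Hapln1, Cnmd, Comp and Otor. They were matched by the platform's gene symbols and were represented by 25 of 45101 probe sets. Of the 10 genes, 9 passed the filter on low signal and were tested among 13705 genes, and Comp did not pass. Each gene was followed over all 8 groups with all arrays and again without the arrays of replicate number 1.

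Sox9 commits mesenchymal cells to the chondrocyte lineage, and Sox5 and Sox6 act beside it on the enhancers of cartilage genes. The matrix genes encode the proteoglycan aggrecan (Acan) and the link protein that fixes it to hyaluronan (Hapln1), the filament-forming matrilins (Matn1, Matn3), the membrane glycoprotein chondromodulin (Cnmd), the pentameric cartilage oligomeric matrix protein (Comp) and otoraplin (Otor), a small secreted protein known from the cartilage around the inner ear. In the lower jaw the main early cartilage is Meckel's cartilage, which forms from neural crest cells.

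The series held 32 whole-genome arrays of C57B6 embryos at embryonic day 13.5, with 4 arrays in each of 8 groups. Parents were Wnt1cre;Alk5fl/+ and Alk5fl/fl animals, so that Cre recombinase removed Alk5 from cells descended from Wnt1-expressing neural crest. Other cells, such as those of epithelium, skeletal muscle and endothelium, kept their receptor. Mutants were picked by their palate and skull vault defects, and controls were littermates whose Alk5 and Cre alleles the labels do not give. Mandible and maxilla of both genotypes were each split into a distal and a proximal part, which gave control and mutant distal mandible, proximal mandible, distal maxilla and proximal maxilla. Arrays in a group were numbered 1 to 4. The labels do not say whether numbers stand for separate embryos or pools, so the p-values rest on array-to-array spread, which may in part be technical. In bulk tissue, fewer cells of a type and less RNA per cell cannot be told apart.

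Promoters of 5 of the genes are shown because their transcripts differed most between jaws or genotypes, or, for Acan, because it is a well-known target of the Sox factors. Each line is the 250 bases before a transcription start, from RefSeq on GRCm38.p6, read 5′ to 3′ along the gene. Capitals mark matches, on either strand, to the Sox core motifs ACAAT and ACAAAG and to the Smad element CAGAC, the DNA motif bound by the TGF-beta signal transducers. No matches overlapped in the windows shown.
Otor, chr2:143078143-143078392, plus strand: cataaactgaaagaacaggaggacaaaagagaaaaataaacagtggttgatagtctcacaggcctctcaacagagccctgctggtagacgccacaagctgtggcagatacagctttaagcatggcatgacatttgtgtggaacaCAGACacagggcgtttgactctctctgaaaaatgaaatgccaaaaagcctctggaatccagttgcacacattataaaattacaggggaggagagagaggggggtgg
Sox5, chr6:143947107-143947356, minus strand: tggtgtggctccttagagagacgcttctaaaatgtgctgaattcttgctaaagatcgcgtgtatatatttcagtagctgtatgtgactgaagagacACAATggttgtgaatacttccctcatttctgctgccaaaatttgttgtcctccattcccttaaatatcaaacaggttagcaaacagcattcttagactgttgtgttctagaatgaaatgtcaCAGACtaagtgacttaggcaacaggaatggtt
Hapln1, chr13:89540386-89540635, plus strand: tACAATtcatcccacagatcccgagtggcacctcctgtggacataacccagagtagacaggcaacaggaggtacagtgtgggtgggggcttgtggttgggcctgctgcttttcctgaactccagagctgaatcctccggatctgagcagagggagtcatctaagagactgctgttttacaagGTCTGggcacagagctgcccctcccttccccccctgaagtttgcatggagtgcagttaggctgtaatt
Cnmd, chr14:79662184-79662433, minus strand: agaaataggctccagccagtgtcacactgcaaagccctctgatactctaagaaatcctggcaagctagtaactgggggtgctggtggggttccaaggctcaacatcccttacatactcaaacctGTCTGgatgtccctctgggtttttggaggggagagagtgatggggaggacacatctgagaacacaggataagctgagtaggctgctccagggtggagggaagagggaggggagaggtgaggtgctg
Acan, chr7:79052976-79053225, plus strand: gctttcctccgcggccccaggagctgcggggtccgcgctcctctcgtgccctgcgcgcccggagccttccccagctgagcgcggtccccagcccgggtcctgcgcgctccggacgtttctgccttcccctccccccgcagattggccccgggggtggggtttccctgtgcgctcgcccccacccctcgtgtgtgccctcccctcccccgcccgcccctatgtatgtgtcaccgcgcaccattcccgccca

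Otor had a CAGAC match 106 to 102 bases before its start. Sox5 had an ACAAT match at 154 to 150 and a CAGAC match at 32 to 28 bases before the start. Hapln1 carried ACAAT at 249 to 245 and CAGAC on the reverse strand at 68 to 64 bases, and Cnmd carried CAGAC on the reverse strand at 126 to 122 bases. The Acan window held none of the 3 motifs, and its GC content was 74.4%, against a median of 52.4% over 32851 promoters. The table held 13 windows for 8 of the 10 genes. Of those 8 genes, 7 had CAGAC in at least 1 window, 3 had ACAAT, and Sox6 alone had ACAAAG. By window, 8 of the 13 held CAGAC, 5 held ACAAT and 5, all of Sox6, held ACAAAG. Over all 32851 promoters the shares of windows with a match were 42.2% for CAGAC, 27.7% for ACAAT and 16.5% for ACAAAG. These matches describe the letters in the windows and do not identify binding sites.

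Values are log2 signal, so a difference of 1 is a factor of 2, and levels are compared for a given gene only. Array medians lay between 7.35 and 7.49, arrays of a group correlated at 0.926 to 0.997, and 0 pairs were identical. The summed linear level of the lower-jaw genes (Hand2, Dlx5 and others) was 13704 to 22332 on mandible arrays and 2331 to 5543 on maxilla arrays, without overlap. The upper-jaw list did not separate the jaws, with 27858 to 39979 on proximal mandible arrays and 12411 to 28842 on maxilla arrays. Twist1, Prrx1 and Pdgfra, genes of jaw mesenchyme, were above the filter level on 32 of 32 arrays. Tgfbr1, the gene of Alk5, read 12.65 to 12.71 in control and 12.87 to 13.07 in mutant group means. Where its probes lie relative to the deleted exons was not determined, so this probe set checks nothing about the deletion.

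Some libraries stood apart. The Cre spike-in control read 13.53 to 13.85 on the 8 arrays of number 1 and 12.17 to 13.07 on the other 24. Xist, the transcript that coats the inactive X of female cells, read 13.34 to 13.90 on the arrays of mutant number 1 and 13.53 to 14.06 on those of control number 2. On the maxilla arrays labelled control number 3 it read 9.69 and 10.72, while the mandible arrays of that number read 6.70 and 6.84. On every other array Xist lay between 6.38 and 6.96. The 4 maxilla arrays labelled control number 2 and mutant number 4 ran against the other maxilla arrays of their genotype in the difference between ends. Over 13662 genes the distal minus proximal difference of the pair labelled control number 2 correlated at -0.74 to -0.28 with the other controls, and that of mutant number 4 at -0.69 to -0.06 with the other mutants. Values without these 4 arrays are given beside some of the regional results. Other results that use maxilla arrays may also move without them, and the averages over regions were not recomputed without them. Control distal mandible number 3 had a Gapdh 3′ minus 5′ difference of 2.23, against -0.18 to 0.12 on the other arrays.

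Averaged over the 4 regions, the mutants held less Otor, and no other of the 9 tested genes passed the test. Otor fell by 1.13 on the log2 scale, a 2.18-fold lower level, with an adjusted p of 0.00227 by limma with Benjamini-Hochberg adjustment. All 9 genes had average differences below 0, with a median of -0.73 against -2.31e-05 over all genes tested, and the largest were those of Cnmd, Hapln1 and Acan. Of the 9 genes 1 passed, where 1.37% of all genes passed. Without number 1, 6 of 9 differences were below 0, the median was -0.42, and Otor was again the only gene of the 9 to pass, where 6.85% of all genes did. The plot of signal by region and genotype shows every array.

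**Figure D1:**
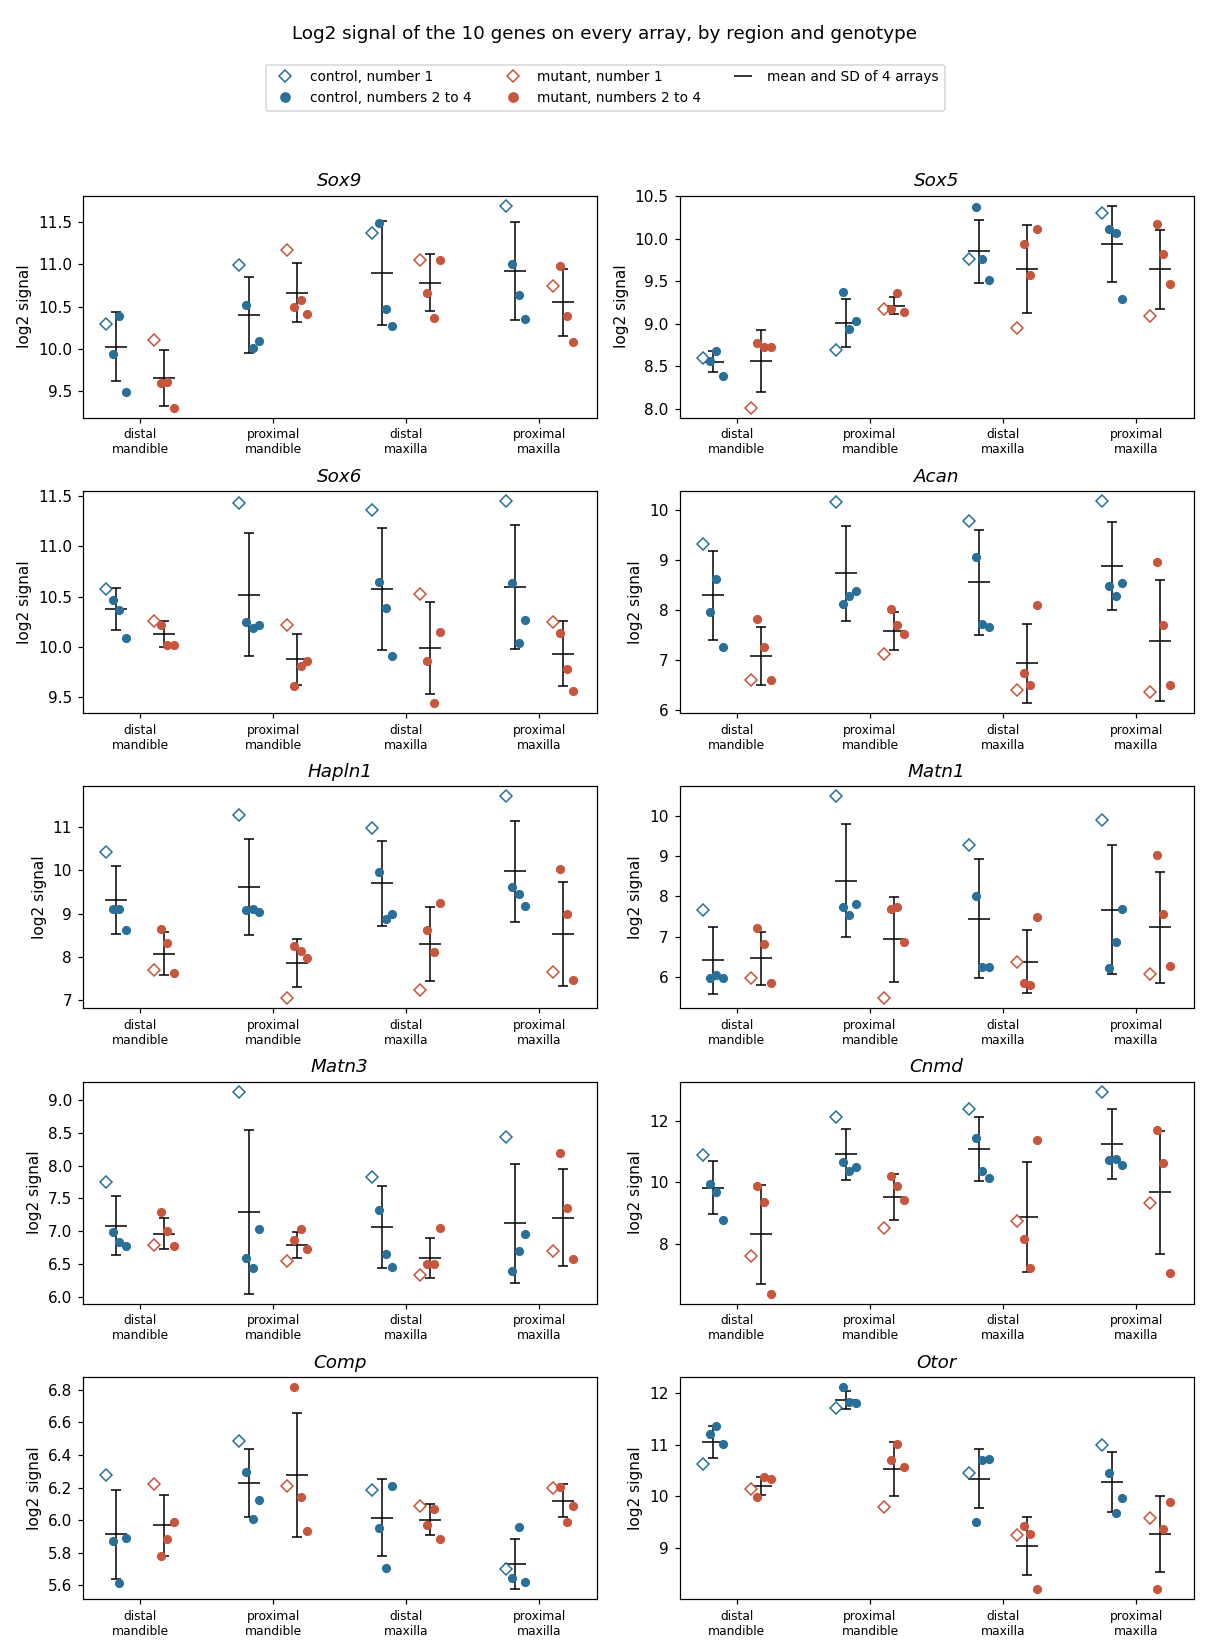
Log2 signal of the 10 genes by region (x axis) and genotype, with 1 panel per gene; open diamonds are arrays of number 1, filled circles are numbers 2 to 4, and black marks give the mean and SD of 4 arrays. Otor was lower on all mutant arrays of both mandible regions and of the distal maxilla, whereas the open diamonds of Acan, Matn1, Matn3, Hapln1 and Cnmd lay highest in all 4 control groups.

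Region by region, the counts were small. In the distal mandible 0 of 9 genes passed, where 1.91% of all genes passed, and 2 of 9 had an unadjusted p under 0.05, as did 16% of all genes. In the proximal mandible 1 of 9 passed, where 1.26% of all genes did, with 3 of 9 under 0.05 unadjusted against 11.9% of all genes. In the distal maxilla 0 of 9 passed against 0.788% of all genes, with 4 of 9 under an unadjusted p of 0.05 against 12.9% of all genes. In the proximal maxilla 0 of 9 passed against 0.0657% of all genes, again with 4 of 9 under 0.05 unadjusted, against 4.9% of all genes. Without number 1, limma called 0 of 9 in each of the 4 regions, where 2.56%, 1.44%, 1.04% and 0.233% of all genes passed in distal mandible, proximal mandible, distal maxilla and proximal maxilla.

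Otor was the member with the clearest separation of genotypes. In the proximal mandible the control arrays read 11.71, 12.12, 11.83 and 11.80 for numbers 1 to 4. The mutant arrays of that region read 9.80, 10.71, 11.02 and 10.57. Every control array lay above every mutant array, which was so, with mutants lower, for 5.5% of all genes. The difference was -1.34 ± 0.33 (SE, n = 4 and 4), 2.53-fold lower in mutants, with an adjusted p of 0.0381. Without number 1 it was -1.15 with an adjusted p of 0.154. With any of the 4 numbers left out the adjusted p lay between 0.0938 and 0.202, and the call was also lost without any single array of the 8 except mutant number 3. Without the 4 maxilla arrays that ran against their genotype the adjusted p was 0.0112.

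In the distal mandible Otor read 10.63, 11.21, 11.36 and 11.01 in controls and 10.14, 9.98, 10.37 and 10.33 in mutants. The groups did not overlap, which held with mutants lower for 8.02% of all genes, and the difference of -0.85 ± 0.33 did not pass (adjusted p = 0.196). The distal maxilla gave 10.44, 9.50, 10.70 and 10.73 in controls against 9.24, 9.43, 9.26 and 8.21 in mutants. Again no mutant array reached a control array, which was so for 3.47% of all genes. The distal maxilla difference was -1.31 ± 0.33 with an adjusted p of 0.0576, and without the 4 maxilla arrays named above it was -1.31 with an adjusted p of 0.0346. Leaving out number 2 alone gave -1.72 with an adjusted p of 0.0183, and leaving out only its control distal maxilla array gave 0.0102. In the proximal maxilla controls read 10.998, 10.45, 9.68 and 9.97, and mutants read 9.59, 8.21, 9.37 and 9.90. These overlapped, and the difference of -1.01 ± 0.33 had an adjusted p of 0.45.

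Averaging the 4 regions of a number first gave control values of Otor of 10.95, 10.82, 10.89 and 10.88 and mutant values of 9.69, 9.58, 10.005 and 9.75. The control averages lay close together and above all mutant averages. Their SD was 0.05, where control arrays within a region had SDs of 0.18 to 0.58. The adjusted p rests in part on this small spread of 4 averages, and Otor had 1 probe set. Averages did not overlap, with mutants lower, for 7.14% of all genes. Without number 1 the difference was -1.08 ± 0.10 (adjusted p = 0.00322). Equal numbers deviated together in this comparison, and with the number as a block the adjusted p of Otor was 0.00839 while the count over all genes went from 188 to 388. Without number 4 the difference was still -1.13 but the adjusted p was 0.0834, in a fit that called 1 gene of all tested.

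Tendon markers, read beside Otor, were also lower in value in mutants. The list (Scx, Tnmd, Mkx, Kera, Thbs4) had 5 of 5 average differences below 0, with a median of -0.57, and 0 of 5 passed by limma (2 of 5 at an unadjusted p under 0.05). Kera (-1.56, adjusted p = 0.0419) and Scx (-0.68, adjusted p = 0.0148) passed without number 1, where 6.85% of all genes did. Kera also fell in the distal mandible with all arrays (-2.07, adjusted p = 0.0244) but did not pass there without number 1 (-2.09, adjusted p = 0.0716). The list's summed linear level was 3627 to 5481 in control and 2132 to 2344 in mutant proximal mandible, and 2862 to 3499 against 1844 to 2308 in distal mandible. In the distal maxilla it was 1835 to 3200 against 940 to 1553, and in the proximal maxilla 1582 to 2521 against 1592 to 2006. The part of tendon tissue in the Otor result was not tested. Inner ear markers had a median average difference of -0.07, with 0 of 6 called and 1 of 6 under 0.05 unadjusted, and their summed level was 491 to 841 on 31 arrays and 3000 on mutant distal maxilla number 4, the array with the lowest Otor of its group. Macrophage markers were higher in mutants for 4 of 10 genes on average, with a median of 0.63. The distal mandible ran the other way, with Pf4 (-1.18) and Ptprc (-1.08) lower, a median of -0.26, and a summed level of 3886 to 6238 in controls and 3104 to 3761 in mutants. Of the other markers, 0 of 11 muscle, 0 of 8 endothelial, 0 of 7 oral epithelial and 0 of 4 erythroid genes passed on average, with 2, 2, 0 and 1 under 0.05 unadjusted, and 1 of 10 neuron genes was lower.

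**Figure D2:**
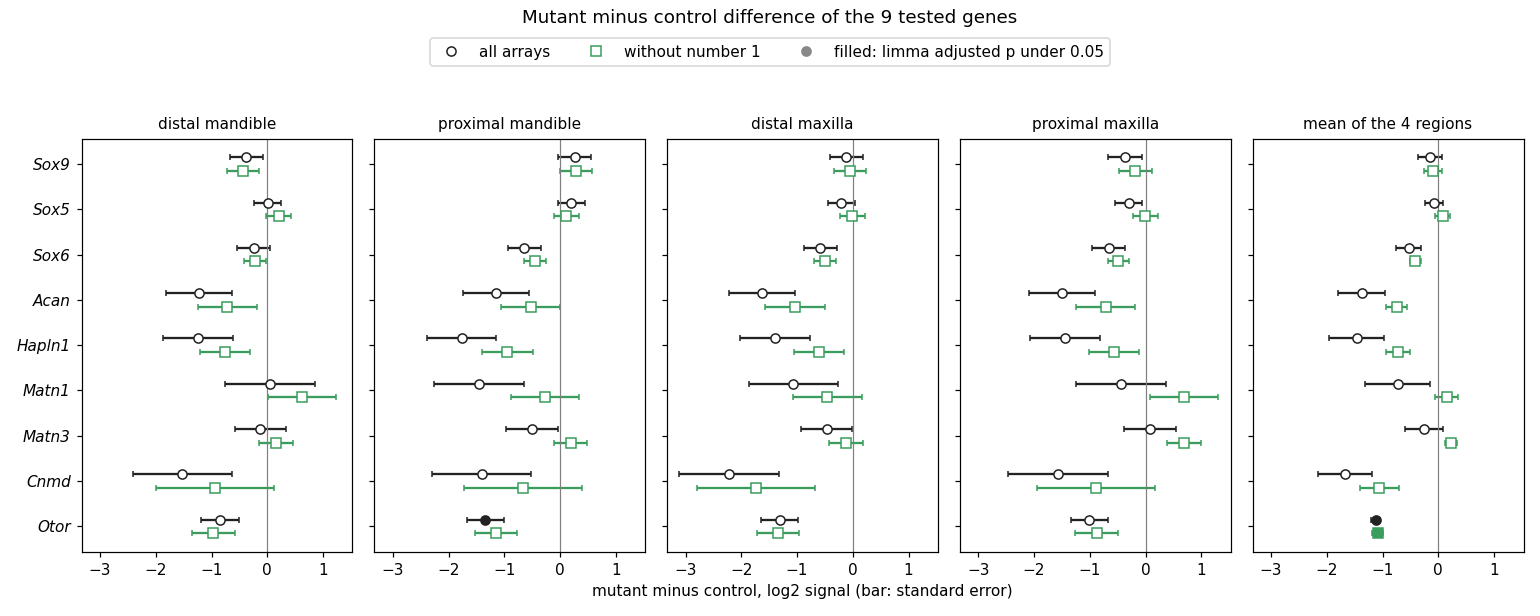
Mutant minus control difference in log2 signal with its SE for the 9 tested genes, in each of 4 regions and for the mean of the 4 regions; circles use all arrays, squares leave out number 1, and filled symbols passed limma at an adjusted p under 0.05. Only Otor has filled symbols, for the mean of the 4 regions with and without number 1 and for the proximal mandible with all arrays.

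The Sox genes showed smaller differences. Sox9 differed by -0.37, 0.26, -0.11 and -0.37 in distal mandible, proximal mandible, distal maxilla and proximal maxilla, with adjusted p-values of 0.595 to 0.999. Its regional averages were 11.09, 10.74, 10.38 and 10.05 in controls and 10.77, 10.43, 10.24 and 10.22 in mutants. The groups overlapped, and the average difference was -0.15 ± 0.22 (adjusted p = 0.846). Sox5 had a mean average difference of -0.07 ± 0.17 (adjusted p = 0.911), with regional values of 0.01, 0.20, -0.21 and -0.30 whose sign in the mandible turned with the scaling or the choice of probe sets. Sox6, the partner of Sox5, was lower on average by values that did not pass, at 11.20, 10.50, 10.25 and 10.12 in controls and 10.31, 9.96, 9.77 and 9.90 in mutants. Those averages overlapped through mutant number 1. The Sox6 difference was -0.53 ± 0.23 (adjusted p = 0.343). Without number 1 the groups did not overlap, as for 15% of all genes with mutants lower, and the difference was -0.42 ± 0.10 (adjusted p = 0.0573).

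Acan and Hapln1, whose products form the same aggregates in cartilage, gave large differences with a large spread. Acan averages were 9.86, 8.40, 8.22 and 7.96 in controls and 6.61, 7.88, 7.29 and 7.18 in mutants. The groups did not overlap, although control number 4 and mutant number 2 were close. Averages did not overlap for 4 of the 9 genes (Otor, Acan, Hapln1 and Cnmd), and for 7.14% of all genes with mutants lower. The average difference was -1.37 ± 0.42 (adjusted p = 0.169), and without number 1 it was -0.75 ± 0.20 (adjusted p = 0.0717). By region the Acan difference was -1.22, -1.16, -1.63 and -1.49 with all arrays and -0.72, -0.52, -1.04 and -0.72 without number 1, in the order distal mandible, proximal mandible, distal maxilla, proximal maxilla. Without the 4 maxilla arrays the distal maxilla difference was -1.85 for Acan (adjusted p = 0.177) and -1.63 for Hapln1 (adjusted p = 0.285), from -1.40 with all arrays.

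For Hapln1 the averages were 11.10, 9.44, 9.14 and 8.95 in controls and 7.40, 8.89, 8.39 and 8.08 in mutants. Control number 1 lay well above all others, mutant number 1 lay lowest, and the other 6 values were separated by a narrow gap. The average difference was -1.46 ± 0.49 (adjusted p = 0.21) and -0.72 ± 0.21 without number 1 (adjusted p = 0.0964). All 4 probe sets of Hapln1 had average differences between -1.47 and -1.01. In the proximal mandible Hapln1 read 11.28, 9.07, 9.11 and 9.03 in controls and 7.05, 8.26, 8.15 and 7.98 in mutants. The groups there did not overlap, and the difference was -1.77 ± 0.63 with all arrays (adjusted p = 0.194) and -0.94 without number 1 (adjusted p = 0.383). In that region 4 of the 9 genes (Otor, Acan, Hapln1 and Cnmd) had no overlap, as 5.5% of all genes had with mutants lower.

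Cnmd, whose product keeps cartilage free of vessels, had the lowest average difference of the 9. Its averages were 12.08, 10.69, 10.29 and 9.996 in controls and 8.54, 9.99, 9.26 and 8.55 in mutants. Control number 4 and mutant number 2 nearly met. The difference was -1.68 ± 0.48 (adjusted p = 0.15), and -1.06 ± 0.35 without number 1 (adjusted p = 0.129). In the distal maxilla Cnmd read 12.38, 11.44, 10.38 and 10.14 in controls and 8.74, 8.16, 7.19 and 11.39 in mutants. There 3 mutant arrays lay below all controls and number 4 lay above 2 of them. That difference was -2.22 (adjusted p = 0.27) and became -2.94 ± 0.85 (adjusted p = 0.079) without the 4 maxilla arrays named above, while in the proximal maxilla it went from -1.58 to -0.88.

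The matrilins and Comp were near the lower end of the signal range. Matn1 was above the filter level on 18 of 32 arrays and Matn3 on 21, against 26 for Acan, 31 for Cnmd and 32 for Hapln1, Otor and the Sox genes. In the proximal mandible Matn1 read 10.48, 7.74, 7.54 and 7.81 in controls and 5.47, 7.68, 7.73 and 6.86 in mutants. Numbers 2 to 4 of the 2 genotypes overlapped, and both number 1 arrays lay outside them. The average difference of Matn1 was -0.73 ± 0.58 (adjusted p = 0.671) with all arrays and 0.15 without number 1 (adjusted p = 0.72). Matn3 gave -0.25 ± 0.34 (adjusted p = 0.831) and 0.23 without number 1 (adjusted p = 0.262), so the sign of both turned. The single probe set of Comp read 5.62 to 6.82, was above the filter level on 1 of 32 arrays, and was not tested.

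Number 1 stood apart in the matrix genes, in opposite directions in the 2 genotypes on average over regions, and more evenly across regions in controls. In controls its regional average exceeded the mean of numbers 2 to 4 by 2.47 for Matn1, 1.93 for Hapln1, 1.76 for Cnmd, 1.67 for Acan and 1.52 for Matn3. In mutants the same quantity was -1.04, -1.05, -0.73, -0.83 and -0.40 for those genes. Control number 1 was the highest control array in 4 of 4 regions for all 5 and for Sox6. Mutant number 1 was the lowest mutant array in 4 of 4 regions for Acan, 2 for Matn1, Matn3 and Hapln1, and 1 for Cnmd. For Otor the same quantity was 0.08 in controls and -0.09 in mutants, as averages of regional values of -0.56 to 0.96 and -0.97 to 0.43. For number 1 alone the mutant minus control difference was therefore -3.70 for Hapln1, -3.55 for Cnmd, -3.35 for Matn1 and -3.25 for Acan, against -1.26 for Otor. Beside this, number 1 had the high spike-in level, its control and mutant arrays differed in Xist, and control number 1 had a high summed osteoblast level. The latter was 10977, 14779, 10222 and 5561 in distal mandible, proximal mandible, distal maxilla and proximal maxilla, where the other controls read 5373 to 6657, 4688 to 4913, 4017 to 5021 and 3130 to 4618. Mutant number 1 read 5343, 4019, 5212 and 4312 in the same order. It was the highest mutant except in the proximal maxilla, as the other mutants read 3590 to 4398, 2715 to 3546, 2403 to 2944 and 2841 to 4356. Of the 8 osteoblast markers, 4 were past the filter, and Ibsp and Dmp1 were not. The 4 had average genotype differences below 0, with a median of -0.83, 0 called and 2 under 0.05 unadjusted. All 4 passed as lower without number 1, where 4.04% of all genes passed as lower. The part of these in the matrix gene differences was not tested.

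Control mandible was next compared with control maxilla. Sox5 was lower in the mandible and Otor was higher in its proximal end. At the distal end 1 of 9 genes passed, where 1.47% of all genes did, and at the proximal end 2 of 9, where 5.4% did. Without number 1 it was 1 of 9 at each end, where 2.56% and 6.45% of all genes passed.

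Distal Sox5 read 8.59, 8.56, 8.68 and 8.38 in control mandible and 9.76, 10.37, 9.75 and 9.51 in control maxilla. The jaws did not overlap, which held with mandible lower for 4.13% of all genes. The difference was -1.30 ± 0.25, 2.46-fold lower in mandible (adjusted p = 0.00329), -1.34 without number 1 (adjusted p = 0.00254) and -1.12 without the 4 maxilla arrays (adjusted p = 0.0224). It did not pass without number 2 (adjusted p = 0.0873) or without number 3 (adjusted p = 0.0841). At the proximal end Sox5 read 8.69, 9.37, 8.94 and 9.03 in mandible and 10.30, 10.11, 10.07 and 9.29 in maxilla. Maxilla number 4 lay within the mandible range. The proximal difference was -0.93 ± 0.25, 1.91-fold lower (adjusted p = 0.0202), and it was lost without number 1 (-0.71, adjusted p = 0.0723), number 2 (0.0595) or number 3 (0.281). It was also lost without any of 5 of the 8 single arrays, with adjusted p-values of 0.0558 to 0.0797, and it held without the 4 maxilla arrays (-0.88, adjusted p = 0.0416). Of 7 probe sets of Sox5, 5 were past the filter, and 3 of those 5 passed at each end when every probe set was tested.

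Sox9 lay in the same direction without passing in the fit of group means. Distal values were 10.29, 9.95, 10.39 and 9.49 in mandible and 11.37, 11.48, 10.47 and 10.27 in maxilla, and the jaws overlapped slightly. The difference was -0.87 ± 0.30 (adjusted p = 0.19), -0.80 without number 1 (adjusted p = 0.153) and -0.68 without the 4 maxilla arrays (adjusted p = 0.578). It passed with number 1 as a batch covariate (adjusted p = 0.0429) and with the mean of its probe sets (adjusted p = 0.0105). The mandible read below the maxilla in 4 of 4 numbers, and another Sox9 probe set gave -1.15 (adjusted p = 0.0215 when every probe set was tested). For Sox6 the distal and proximal differences were -0.20 and -0.08, with adjusted p-values of 0.939 and 0.966.

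Proximal Otor was 3.01-fold higher in control mandible than in control maxilla, from the control values given above for those regions. The 4 mandible arrays all lay above the 4 maxilla arrays, which was so for 5.93% of all genes. The difference was 1.59 ± 0.33 (adjusted p = 0.00315) and 1.88 without number 1 (adjusted p = 0.00563) and 1.65 without the 4 maxilla arrays (adjusted p = 0.0015), and it did not pass without number 3 (1.40, adjusted p = 0.104). At the distal end it was 0.71 (adjusted p = 0.466), and 0.43 without the 4 maxilla arrays (adjusted p = 0.859). Other tissues differed between the proximal ends too, with 7 of 11 muscle and 2 of 5 tendon markers (Thbs4 and Kera) higher and 4 of 10 neuron markers lower in mandible. Their part in the Otor difference was not tested.

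The group order of Otor ran from control proximal mandible (11.87 ± 0.18, SD, n = 4) and control distal mandible (11.05 ± 0.31) through mutant proximal mandible (10.53 ± 0.52), control distal maxilla (10.35 ± 0.58), control proximal maxilla (10.27 ± 0.58) and mutant distal mandible (10.21 ± 0.18) to mutant proximal (9.26 ± 0.74) and distal maxilla (9.04 ± 0.56). The first, the second and the sixth step of this order exceeded the larger SD of the pair, and the middle 4 groups did not differ beyond it. For Sox5 the 4 maxilla groups (9.64 to 9.94) lay above the 4 mandible groups (8.55 to 9.21), and only the step from control proximal to mutant distal mandible exceeded the SD. Sox6, Acan, Hapln1 and Cnmd all had their 4 control groups above their 4 mutant groups, but the step between genotypes did not exceed the SD for Acan, Hapln1 or Cnmd. The groups accounted for 79.7% of the variance of Otor, 73.2% of that of Sox5 and 11.5% of that of Matn3.

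Between the distal and proximal ends of control jaws 0 of the 9 genes passed. In control mandible 4.84% of all genes passed by limma, and 2 of 9 had an unadjusted p under 0.05 against 16.2% of all genes, Matn1 at -1.98 ± 0.80 (adjusted p = 0.194) and Otor at -0.81 ± 0.33 (adjusted p = 0.204), distal minus proximal. Differences of all 9 genes were below 0 with all arrays and of 7 without number 1. Otor and Sox5 had no overlap between the ends, as 5.81% of all genes had with the distal end lower. Without number 1 Matn1 was at -1.70 (adjusted p = 0.101). Its ends did not overlap then, which is easier to meet with fewer arrays, and the share over all genes was not computed for that setting. Cnmd was at -1.09 with all arrays (adjusted p = 0.646). In control maxilla 0 of 9 passed, where 0% of all genes did, and 0 of 9 had an unadjusted p under 0.05 against 2.96% of all genes. Without the 4 maxilla arrays 0 of 9 passed there, with adjusted p-values of 0.774 to 0.993, where 184 genes (1.34%) did.

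**Figure D3:**
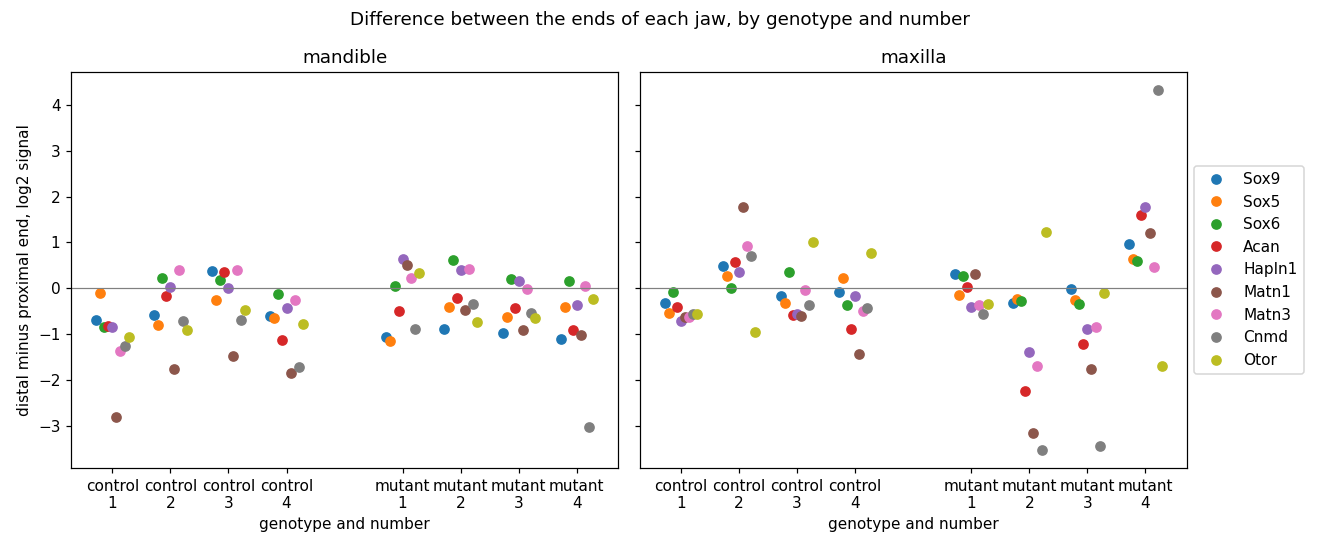
Distal minus proximal difference in log2 signal for the 9 tested genes, with 1 point per genotype and number, in the mandible (left) and the maxilla (right). In the maxilla the points of control number 2 and mutant number 4 lay above 0 for 8 of 9 genes, with Cnmd of mutant number 4 at 4.33.

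In the maxilla the libraries labelled control number 2 and mutant number 4 had 1 of 9 genes lower at the distal end. The other controls had 9, 7 and 7, and the other mutants 5, 8 and 9. The Cnmd difference in mutants was -0.57, -3.54, -3.45 and 4.33 for numbers 1 to 4, so that number 4 had the opposite sign. The summed level of the jaw mesenchyme markers moved with these libraries. For control number 2 it was 32946 at the distal and 51702 at the proximal end, where the other controls had 50507 to 54026 and 33207 to 42695. Mutant number 4 had 28377 and 54531, where the other mutants had 44821 to 51112 and 27354 to 48528. Whether these labels match the tissue was not tested beyond these values.

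The genotype difference itself was compared between ends and between jaws. With all arrays, 0 of the 9 genes passed in each of these 4 tests, and 0 had an unadjusted p under 0.05. Over all genes 0.0219% passed between the ends of the mandible, 0.0584% between the ends of the maxilla, 0.102% between jaws at the distal end and 0.0073% between jaws at the proximal end. For Otor the genotype difference in mandible minus that in maxilla was 0.46 ± 0.47 at the distal end and -0.33 ± 0.47 at the proximal end, both within their SE. The test between maxilla ends uses the 4 maxilla arrays that ran against their genotype. When they were left out, 0 of 9 genes passed there by limma, where 0.255% of all genes did. Cnmd moved most in that test, from -0.64 ± 1.27 to -2.06 ± 1.20 (adjusted p = 0.968).

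The matrix genes varied together over arrays. Over 32 arrays Pearson's r was 0.935 for Acan and Hapln1, 0.893 for Acan and Cnmd and 0.857 for Matn1 and Matn3, and all pairs among these 5 genes lay between 0.647 and 0.935. After each group's mean was removed and number 1 left out, the 24 remaining arrays gave 0.771 to 0.929. Sox9 and Sox5 reached 0.666 over 32 arrays, and Sox5 and Sox6 0.0599, while within groups without number 1 they reached 0.89 and 0.685. Otor ran opposite to the matrix genes within groups without number 1, at -0.765 with Acan, -0.749 with Hapln1, -0.835 with Matn1, -0.83 with Matn3 and -0.679 with Cnmd. Within groups with all arrays these lay between -0.361 and -0.219, and over 32 arrays between 0.0582 and 0.305. The 24 arrays include the 4 maxilla arrays labelled control number 2 and mutant number 4, and r was not computed without those. Among numbers 2 to 4, control distal maxilla number 2 had the highest Acan (9.06) and the lowest Otor (9.50) of its group. Mutant distal maxilla number 4 likewise had the highest Acan (8.10) and the lowest Otor (8.21). Arrays of a number may share embryos, handling and the cut between ends, so these values are descriptions.

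**Figure D4:**
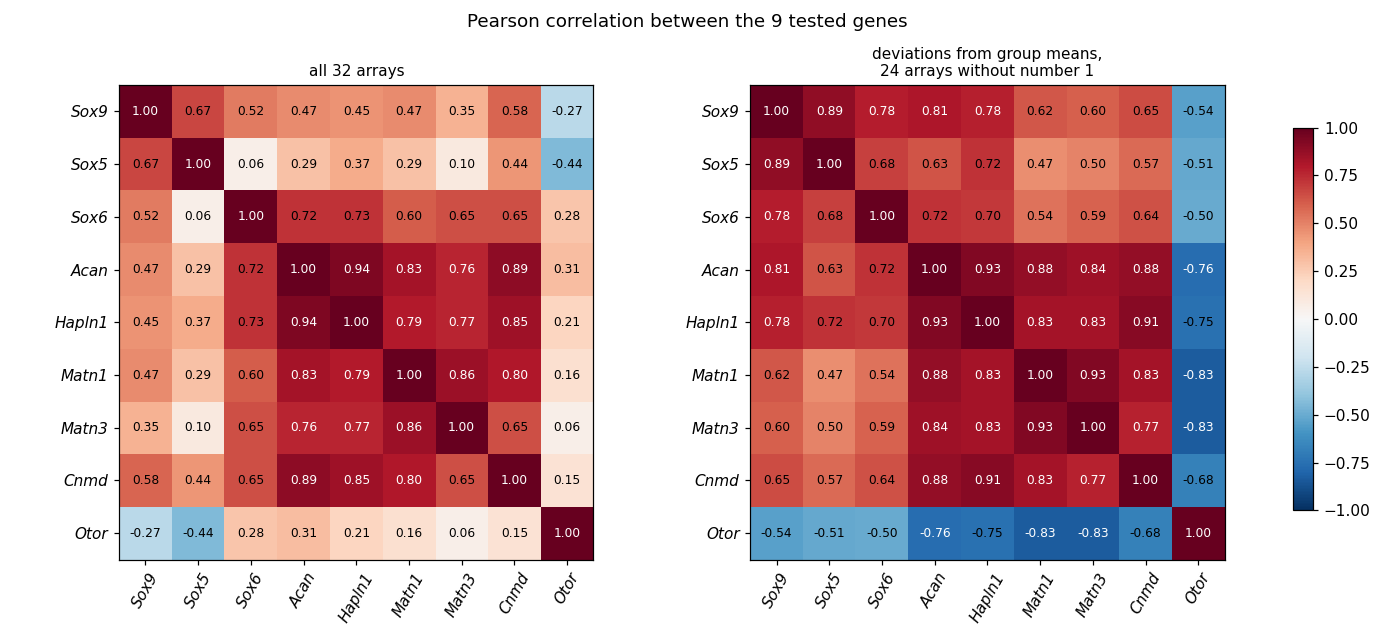
Pearson correlation between the 9 tested genes over all 32 arrays (left) and over the 24 arrays without number 1 after subtraction of group means (right), coloured from -1 to 1. The 5 matrix genes Acan, Matn1, Matn3, Hapln1 and Cnmd form a block of positive values in both panels, and Otor is negative with each of them on the right and not on the left.

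Among all genes outside the 10, the profile over 32 arrays most like the median of the members was that of Col11a1 (r = 0.948), followed by Col9a3 (0.910) and Fzd9 (0.905), and the tenth was Fndc3b (0.877). Col9a3 was the gene most like Acan (0.941) and Hapln1 (0.947), Cytl1 most like Matn1 (0.875), Col11a2 most like Matn3 (0.861) and Matn4 most like Cnmd (0.907). Col27a1 was most like Sox6 (0.895), Zfp608 most like Sox9 (0.876) and F3 most like Sox5 (0.910). Without number 1 the r of Col11a2 with Matn3 went from 0.861 to 0.535 over 24 arrays, and those of the first genes for the members' median and for the other 7 of these members lay between 0.798 and 0.923. The profile of Otor was most like those of Kera (0.848), Wnt2 (0.821) and Gxylt2 (0.812). Without number 1 these were 0.878, 0.889 and 0.903 over 24 arrays.

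Other cartilage genes were read from 3 lists. For the average effect, limma called 1.37% of all genes with all arrays and 6.85% without number 1. With all arrays 14% of all genes had an unadjusted p under 0.05. Of 7 cartilage collagens tested, 0 passed on average by limma, 4 had an unadjusted p under 0.05 and 7 were below 0, with a median of -0.50. Without number 1 the median was -0.24 and Col27a1, a fibrillar collagen, was the only one to fall (-0.38, adjusted p = 0.0368). Of 14 other matrix and sulfation genes 1 fell, Scrg1 (-0.60 ± 0.08, adjusted p = 0.0149), all 14 were below 0, and the median was -0.48. Without number 1 the median was -0.18 and 3 fell, among them Matn2, a further matrilin (-0.87, adjusted p = 0.00361), which also fell in the distal mandible with all arrays (-1.51, adjusted p = 0.0258). Of 13 regulators and signals 1 rose, Sox8, a Sox9 relative (0.47 ± 0.08, adjusted p = 0.0307), and the median was -0.20. Without number 1 the median of this list was -0.04, with 2 higher and 3 lower. Bmpr1b, a BMP receptor, rose in the proximal mandible with all arrays (1.41, adjusted p = 0.0207) but did not pass without number 1 (1.22, adjusted p = 0.11).

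Between control jaws, with all arrays, 1 of the 34 listed genes passed at the distal end, where 1.47% of all genes did. It was the transcription factor Foxc1 (-1.82, mandible minus maxilla, adjusted p = 0.0202). At the proximal end 2 of the 34 passed, near the share of 5.4% over all genes. These were the joint signal Gdf5 (1.64, adjusted p = 1.48e-05) and Sox8 (0.86, adjusted p = 0.00325). Between the ends of the control mandible, where none of the 9 passed, 6 of the 34 did with all arrays, against 4.84% of all genes. Gdf5 (-2.30, adjusted p = 1.55e-07), Epyc, a small matrix proteoglycan (-2.92, adjusted p = 0.0017), Bmpr1b (-1.55, adjusted p = 0.00412), Barx1 (-2.52, adjusted p = 0.0311) and Pcolce2 (-0.80, adjusted p = 0.0443) were lower at the distal end. Trps1, a zinc finger transcription factor, was higher there (1.29, adjusted p = 0.00901).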

How the data were processed

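The authors deposited a log2 table with a value for every probe set on each array, produced by RMA according to the submitters' processing notes (version not given in the sources used here). RMA draws arrays towards 1 distribution and compresses low signals, and the number of arrays limits precision. RNA was column-purified and labelled as biotin cRNA, per the labels' protocols. Of 45101 probe sets, 34945 carried 1 gene symbol. Probe sets above their array's percentile 40 on at least 4 arrays were kept, and the one with the highest mean stood for its gene (13705 genes).

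Comparisons used limma 3.58.1 in R 4.3.3 on 8 group means (24 residual degrees of freedom), or, for the average effect, on values first averaged over the 4 regions (4 against 4, 6 residual degrees of freedom). P-values were adjusted by the Benjamini-Hochberg method over all genes of each of 13 comparisons, with a threshold of 0.05. Fits were tested on simulated data with independent noise on every array. Those data held no shift of number 1 and no deviation shared by the regions of a number, so that test does not cover these features. Deviations of equal numbers correlated at 0.44, 0.20, 0.40 and 0.23 for the average genotype effect, the only comparison with every value above 0.1. No label pairs the numbers. Number 1 stood apart and enters all of these values, which were not computed without it, so they do not show whether numbers 2 to 4 are paired. Alternatives covered the filter, probe sets, scaling, the block, number 1, the model and left-out arrays.

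The members and lists were chosen with earlier results of these data known. All 10 members were named, with up to 4 genes per list and comparison by smallest adjusted p, and by likeness the 10 genes nearest the median profile and 3 per member. There were 3 cartilage lists and 12 marker lists (muscle, neuron, osteoblast, tendon, macrophage, endothelium, oral epithelium, erythroid, inner ear, jaw mesenchyme, lower jaw, upper jaw). Summed levels add the linear values of a list's tested genes. Promoters came from RefSeq on GRCm38.p6; the files name no build.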

Additional observations from a re-analysis of the deposited data

Results flagged for a closer look

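In groups of 4 values, a highest or lowest value was singled out when its gap to the nearest other took a larger part of the group's range than Dixon's 95% critical value allows. Of 100 groups examined, 13 met this, where chance gives about 5, and 11 of the 13 values belonged to number 1.

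In control proximal mandible number 1 lay far above the others for Sox6 (11.43), Acan (10.16), Matn1 (10.48), Hapln1 (11.28) and Cnmd (12.13). In control proximal maxilla it did so for Acan (10.18) and Cnmd (12.95), and in control distal mandible for Matn1 (7.65, where the other controls read 5.96 to 6.05). Averaged over the 4 regions, control number 1 stood apart for Matn1 (9.32) and Matn3 (8.28). Sox5 was lowest in mutant distal mandible number 1 (8.02).

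The other values were Sox5 in mutant proximal mandible number 3, the highest of its group at 9.36, and Otor in mutant distal maxilla number 4, the lowest at 8.21. The latter belongs to the libraries whose maxilla ends ran against the other mutants.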

How the results depend on the processing

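Where a setting changed how many of the 9 genes passed, the counts were as follows. In the control distal jaw comparison 2 genes passed, against 1, with the mean of a gene's probe sets, each probe set tested, the replicate block or number 1 as a batch covariate; the added gene was Sox9. In the proximal mandible 0 passed, against 1, with each probe set tested or a random block of genotype and number. In the distal maxilla 1 passed, against 0, with the replicate block, the number 1 batch term or without the 4 maxilla arrays, an alternative chosen after seeing the data. The average effect gave 2, against 1, with the number 1 batch term, through Sox6 (adjusted p = 0.0306). With only the groups of a comparison in the model the distal mandible and the control mandible ends gave 1, against 0, and the control proximal jaw comparison 1, against 2. Over left-out arrays and numbers the counts ran from 0 to 1 for the proximal mandible, distal maxilla, average effect and control distal jaw comparison, and from 0 to 2 for the control proximal jaw comparison. The replicate block changed none of the other counts of these genes. It raised the genes called in all from 262 to 729 in distal mandible, 172 to 478 in proximal mandible and 108 to 315 in distal maxilla, where equal numbers did not all deviate together. The batch term gave 782, 486 and 336 there and 1182, against 188, on average. Centring arrays on their median moved the share of called genes that were higher from 45.4% to 32.2% in distal maxilla and from 43.1% to 55.0% in the control proximal jaw comparison.

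Signs that turned belonged to differences that did not pass. Sox5 went to -0.056 in proximal mandible with the mean of probe sets and to -0.011 in distal mandible with median centring. Leaving out arrays or numbers moved Sox5 between -0.10 and 0.20 in distal mandible, -0.47 and 0.023 in distal maxilla and -0.20 and 0.077 on average. Matn1 ran from -0.34 to 0.63 in distal mandible, -1.52 to 0.69 in proximal maxilla and -1.12 to 0.15 on average. Matn3 ran from -0.27 to 0.16 in distal mandible, -0.87 to 0.19 in proximal mandible, -0.49 to 0.69 in proximal maxilla and -0.47 to 0.23 on average. Sox9 ran from -0.41 to 0.12 in distal maxilla and -0.32 to 0.024 on average. The cause of these changes was not tested. Signal near the filter level limits Matn1, Matn3 and Comp.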
